A study of Homo sapiens with 12 samples.

Results

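The 32 genes described here encode enzymes that add methyl or acetyl groups to lysines of histones, 23 of them lysine methyltransferases and 9 acetyltransferases. They were taken by function as a list of symbols, with earlier results of these data known. The symbols were matched to the Ensembl identifiers of the RNA count files, which hold 60662 genes, and of the authors' table of translational efficiency, which holds 12224. All 32 were found in both, and all 32 passed the filters on low values, among 17807 genes tested for RNA and 10906 tested for ribosome footprints. The cells were HEK293T, an established line of human embryonic kidney origin, labelled wild type. In the STM2457 arm they received 20 µM STM2457, which inhibits METTL3, the catalytic subunit of the mRNA m6A writer, dissolved in DMSO at 0.2% (v/v). In the DMSO arm they received DMSO at 0.2% (v/v) without the inhibitor, and both arms were kept for 6 h. Cells of both arms also had 10% extra serum for the last 1 h and, for the last 3 min, 100 µg/ml cycloheximide, a blocker of translation elongation. Each arm had 4 RNA-seq libraries of poly(A) RNA and 2 ribosome profiling (Ribo-seq) libraries of fragments of 26 to 34 nt, and the series design asks how loss of m6A alters translation.

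Lysine methyltransferases move methyl groups from S-adenosylmethionine to histone tails, mostly through a SET domain, and each family favours certain lysines, written as the histone and then the residue (H3K4, H3K36 and so on). Methylation of H3K4 and H3K36 goes with active genes, whereas that of H3K9 and H3K27 goes with silencing. Acetyltransferases use acetyl-CoA, and the acetyl marks they leave sit at active promoters and enhancers. m6A is a methyl mark on adenosines inside mRNA, and reader proteins of the YTH family that bind it promote the decay of many mRNAs.

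As a description, 3 promoters are shown, one for each pattern described further on, and a link between promoter and pattern was not tested. SETD2 had more RNA with a lower translational efficiency, EP300 had more RNA and more footprints, and SETDB2 had less of both. Each has a single start in the RefSeq promoter set, and that of SETDB2 is also the start of the SETDB2-PHF11 readthrough gene. The windows are the 250 bases before the start in GRCh38.p14, read on the strand of the gene, at chr3:47164114-47164363 (minus strand) for SETD2, chr22:41092342-41092591 (plus strand) for EP300 and chr13:49444024-49444273 (plus strand) for SETDB2. Capitals mark the GC box (GGGCGG), the ETS core (CCGGAA) and the CCAAT box (CCAAT), each searched on both strands.
SETD2: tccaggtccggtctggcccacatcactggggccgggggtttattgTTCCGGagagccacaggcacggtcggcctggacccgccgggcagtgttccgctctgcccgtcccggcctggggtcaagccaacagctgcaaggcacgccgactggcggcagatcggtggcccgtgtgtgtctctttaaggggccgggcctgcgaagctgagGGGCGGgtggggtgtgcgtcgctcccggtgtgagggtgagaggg
EP300: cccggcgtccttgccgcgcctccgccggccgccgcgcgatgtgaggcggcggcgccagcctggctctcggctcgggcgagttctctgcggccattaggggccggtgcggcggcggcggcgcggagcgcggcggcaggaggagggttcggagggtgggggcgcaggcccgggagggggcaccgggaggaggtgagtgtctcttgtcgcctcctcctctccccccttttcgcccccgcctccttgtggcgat
SETDB2: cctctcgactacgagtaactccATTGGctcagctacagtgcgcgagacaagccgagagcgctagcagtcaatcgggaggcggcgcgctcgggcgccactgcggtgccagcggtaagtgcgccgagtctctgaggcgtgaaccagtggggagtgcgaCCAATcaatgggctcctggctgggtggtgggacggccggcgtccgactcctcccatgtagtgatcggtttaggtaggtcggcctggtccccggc
The SETD2 window holds 1 GC box and 1 ETS core, the SETDB2 window holds 2 CCAAT boxes, and in the EP300 window 0 of the 3 motifs were found. The RefSeq promoter set as used here had entries for 27 of the 32 genes, with 40 windows in all and more than 1 for some genes. By gene, 20 of the 27 had a GC box and 8 had a CCAAT box in at least 1 window. Of those 40 windows 30 held a GC box, against 42.6% of 35116 windows of all genes, and 9 held a CCAAT box, against 32% of all windows. The TATA box (TATAAA) was in 0 of the 40 windows and in 10.7% of all windows. An ETS core was in 6 of the 40 (14.5% of all), an E-box (CACGTG) in 6 (6.34% of all) and a cAMP response element (tgacgtca) in 1 (1.65% of all). The median GC content was 73.8% in the windows of these genes and 58.0% in all windows. These are matches of letters on either strand, and matches of different motifs may overlap.

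RNA-seq libraries held 43291730 to 51645739 counts, and the reads recovered from the footprint signal numbered 4039314 and 3898620 in the STM2457 libraries and 4711513 and 3198063 in the DMSO libraries. ERCC spike-in RNA took 0.415% to 0.466% of counts in the STM2457 libraries and 0.389% to 0.408% in the DMSO libraries. METTL3 RNA was at 83.0 ± 6.85 CPM (counts scaled to library size) with STM2457 and 75.8 ± 5.97 CPM with DMSO (SD, n = 4), which did not pass (edgeR adjusted p = 0.104), and an inhibitor of the protein need not change its RNA. Of 6 genes described in HEK293 cells, 6 were at 1 CPM or more, and their summed level was 1060 to 1133 CPM with STM2457 and 1068 to 1142 CPM with DMSO. The 4 fibroblast markers summed to 17.6 to 19.5 CPM with STM2457 and 17.4 to 21.5 CPM with DMSO, with 2 of the 4 at 1 CPM or more. The 4 blood cell markers summed to 2.06 to 2.20 CPM with STM2457 and 2.0 to 2.34 CPM with DMSO, and the 2 epithelial markers to 6.15 to 7.51 CPM with STM2457 and 6.85 to 8.01 CPM with DMSO. No label states that the replicates were grown separately, and p-values therefore refer to the spread among these libraries, which could be technical.

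More of these enzyme genes were higher than lower in RNA after METTL3 inhibition. Of the 32, 23 rose and 4 fell at an edgeR adjusted p under 0.05, and 5 did not pass, namely KMT2C, NSD2, EHMT2, KAT2A and KAT7. The higher genes were 71.9% of the list, against 26.2% of all 17807 genes tested, and the lower genes were 12.5%, against 21.6% of all. All 32 also passed the footprint filter, as 10906 genes did. Of the 4669 genes called higher in RNA, 3861 were tested for footprints too. The share called higher is thus larger among such genes than 26.2%, which applies wherever 26.2% is given below. The median log2 change (STM2457 over DMSO) was 0.26 over the list and 0.00 over all genes. All increases were under 2-fold: 7 genes rose by 1.5 fold or more (6.88% of all genes did), and 0 fell by as much (5.54% of all genes did). These 7 were KAT6A, SETD2, SUV39H1, CREBBP, NSD1, EP300 and SETD1B. Without overlap between the 4 STM2457 and the 4 DMSO libraries, 21 of the 32 were higher and 3 lower, where 23.8% and 20.3% of all genes were.

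These changes are relative to the composition of each library, scaled by TMM. When the counts were scaled by the ERCC spike-ins, the median log2 change was -0.19 over all genes and 0.07 over the list, and 14 of the 32 were called higher and 9 lower, against 12.1% and 47.1% of all genes. The 14 were KMT2A, SETD1A, SETD1B, SETD2, NSD1, NSD3, ASH1L, SUV39H1, SETDB1, KMT5B, CREBBP, EP300, KAT6A and KAT6B. The 9 were KMT2C, NSD2, EZH2, SUV39H2, SETDB2, EHMT2, KAT2A, KAT2B and KAT7. In the authors' deposited table, whose RNA signal was tested with limma, 18 of the 32 were higher and 6 lower, against 25.7% and 32.6% of its genes. There EZH1, KMT5A, KMT5C, KAT5 and KAT8 no longer passed as higher, and EHMT2 and KAT2A passed as lower. With ERCC scaling, a lower value in bulk libraries cannot be told apart from fewer cells or less RNA per cell.

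**Figure D1:**
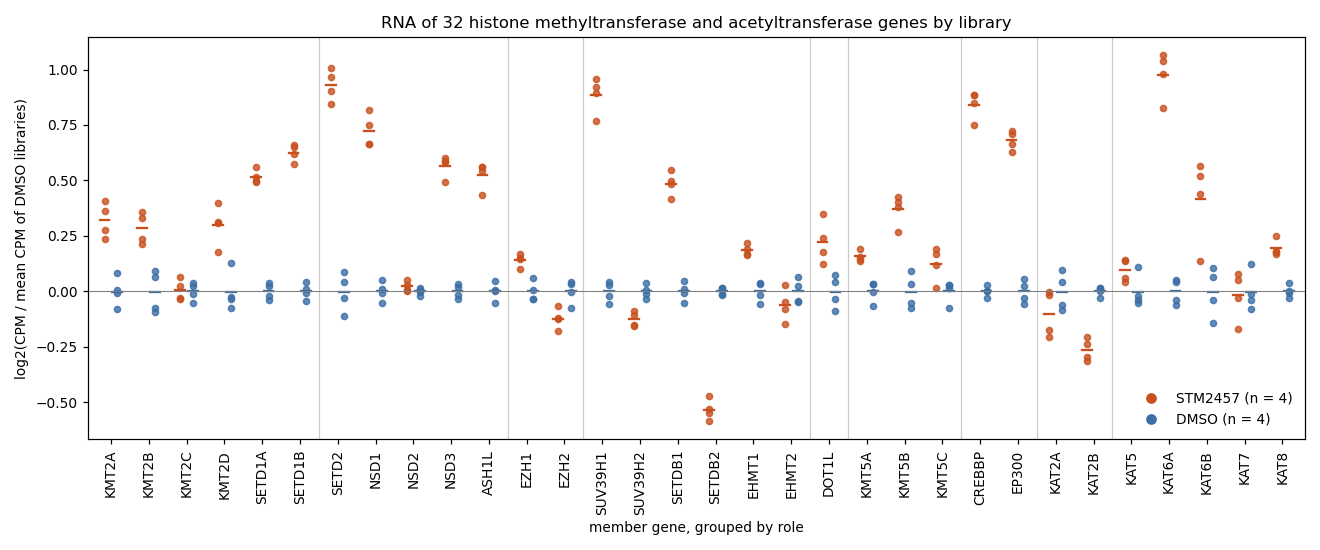
RNA of each of the 32 genes in each library, as log2 of its CPM over the mean CPM of the 4 DMSO libraries, with genes grouped by role and short lines at the mean of each arm (n = 4 libraries per arm). KAT6A, SETD2, SUV39H1 and CREBBP lie farthest above the DMSO libraries, and SETDB2, with a log2 change of -0.53, lies farthest below.

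Ribosome footprints were called in fewer of the genes. With limma on log2(signal + 1), 10 of the 32 rose (31.2%, against 9.59% of 10906 genes) and 2 fell (6.25%, close to the 6.13% of all genes), at an adjusted p under 0.05. Without DMSO replicate 2, 5 rose and 0 fell, and without DMSO replicate 1, 8 rose and 0 fell. With 1 STM2457 library left out, 1 fell, and 7 rose without replicate 1 and 8 without replicate 2. The 10 were KMT2A, KMT2B, KMT2D, SETD1A, SUV39H1, SETDB1, KMT5B, CREBBP, EP300 and KAT6A. Each of them had also risen in RNA, as had 1007 of all 1046 genes that rose in footprints. The 2 were EZH2 and SETDB2, which had also fallen in RNA. Of the 23 genes that rose in RNA, 10 rose in footprints as well (43.5%, against 26.1% of the 3861 genes that rose in RNA and were tested in both). Without overlap between the arms of 2 libraries, 16 of the 32 were higher and 9 lower in footprints, where 25.7% and 28.4% of all genes were. Footprint reads were far fewer than RNA counts and came from 2 libraries per arm, so a missing footprint call does not show that footprints stayed level.

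**Figure D2:**
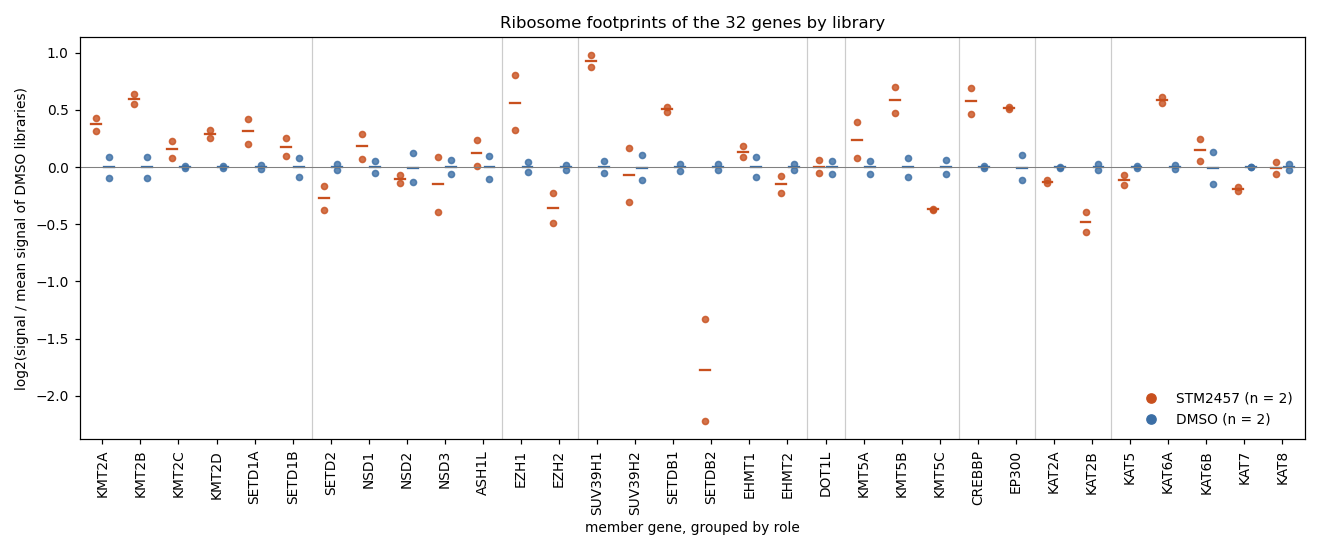
Ribosome footprints of each of the 32 genes in each library, as log2 of the normalized signal over the mean signal of the 2 DMSO libraries, with genes grouped by role and short lines at the mean of each arm (n = 2 libraries per arm). SUV39H1 lies farthest above the DMSO libraries, SETDB2, with 5 and 9 reads in the STM2457 libraries, lies farthest below, and SETD2 and NSD3 lie near or below them although their RNA was higher.

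Of the 6 H3K4 methyltransferases 5 rose in RNA and 4 in footprints, where 26.2% and 9.59% of all genes did. With ERCC scaling, though, KMT2B and KMT2D no longer passed in RNA and KMT2C passed as lower. KMT2A and KMT2B are the MLL enzymes of promoters, KMT2C and KMT2D those of enhancers, and SETD1A and SETD1B place much of the H3K4 trimethylation at active promoters. SETD1B (ENSG00000139718.10) had 83.7, 83.2, 79 and 81.5 CPM in the 4 STM2457 libraries, against 52.8, 53.4, 51.5 and 54.5 CPM in the 4 DMSO libraries, a log2 change of 0.63 (SE 0.03, edgeR adjusted p = 4.31e-09). Every STM2457 library lay above every DMSO library, yet the footprint change of SETD1B, 0.18 (SE 0.18), did not pass (limma adjusted p = 0.589). Its close relative SETD1A (ENSG00000099381.18) had 232 ± 5.16 CPM with STM2457 and 162 ± 4.17 CPM with DMSO (SD, n = 4), a log2 change of 0.52. SETD1A footprint signal was 2199 and 2557 with STM2457, against 1886 and 1933 with DMSO, a log2 change of 0.31 (SE 0.11, limma adjusted p = 0.0407).

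KMT2A (ENSG00000118058.21) RNA rose by 0.33 on the log2 scale, to 112 ± 6.08 CPM with STM2457 against 89.5 ± 4.14 CPM with DMSO, and its footprint signal was 1774 and 1644 with STM2457 against 1403 and 1234 with DMSO (0.38, SE 0.12, limma adjusted p = 0.0227). KMT2B (ENSG00000272333.5) rose by 0.29 in RNA, and its footprint signal was 953 and 898 with STM2457 against 650.1 and 574 with DMSO (0.60, SE 0.15, limma adjusted p = 0.00262). KMT2D (ENSG00000167548.15), at 206 ± 12.8 CPM with STM2457 and 167 ± 10.6 CPM with DMSO, rose by 0.31, and its footprint signal was 2685 and 2819 with STM2457 against 2269 and 2241 with DMSO (0.29, SE 0.10, limma adjusted p = 0.0489). In footprints of these 3 genes and of SETD1A, both STM2457 libraries lay above both DMSO libraries. KMT2C, the enhancer partner of KMT2D, was at 95.1 ± 3.10 CPM with STM2457 and 94.6 ± 2.55 CPM with DMSO, with overlapping libraries and a log2 change of 0.02 (edgeR adjusted p = 0.721). KMT2C has pseudogene copies, and the 5 of them in the count files were at 0 counts. Each footprint call of the H3K4 group was lost when certain libraries were left out. KMT2D lost its call when any 1 of the 4 was left out (limma adjusted p of 0.052 to 0.24), SETD1A without either DMSO library or STM2457 replicate 2 (0.147 to 0.331), KMT2A without DMSO replicate 2 (0.299) or STM2457 replicate 1 (0.12), and KMT2B without DMSO replicate 2 (0.0647).

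Of the 5 H3K36 methyltransferases 4 rose in RNA (26.2% of all genes did). In footprints 0 of the 5 were called, where 9.59% of all genes were higher and 6.13% lower, so 0 of 5 is near those shares. The 4 were among 13 genes of the list that rose in RNA without a footprint call. With ERCC scaling the same 4 passed as higher and NSD2 as lower, where 12.1% and 47.1% of all genes did. SETD2 travels with elongating RNA polymerase II and is the main enzyme of H3K36 trimethylation, whereas NSD1, NSD2 and NSD3 place dimethylation and ASH1L acts at developmental genes. SETD2 (ENSG00000181555.20) had 188, 196, 181 and 202 CPM in the STM2457 libraries, against 103, 107, 98.6 and 93.2 CPM in the DMSO libraries. The arms did not overlap, and the RNA was 1.92-fold higher, a log2 change of 0.94 (SE 0.04, edgeR adjusted p = 1.69e-09). SETD2 footprint signal was 1288 and 1117 with STM2457, from 339 and 286 reads, against 1468 and 1422 with DMSO, from 456 and 295 reads. Both STM2457 libraries were thus below both DMSO libraries, opposite to the RNA, although this footprint change of -0.27 (SE 0.12) did not pass by itself (limma adjusted p = 0.147).

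Translational efficiency, the footprint signal relative to the RNA signal of the same table, was lower for SETD2. The RNA signal of SETD2 was 4099, 4326, 4006 and 4452 with STM2457, against 2369, 2431, 2294 and 2156 with DMSO. The log2 change in efficiency was -1.14 (SE 0.16, limma adjusted p = 0.00177), which placed SETD2 at rank 72 from the lowest of 10906 genes. In 18 alternative fits it ranged from -1.24 to -1.03 and passed in all 18. In all, 2 of the 32 genes passed as lower in efficiency (6.25%, against 0.807% of all genes) and 0 as higher (0.229% of all), the second being NSD3. An edgeR interaction on RNA counts and recovered reads called 4 of the 32 lower, SETD2, NSD3, NSD1 and SETD1B, and 0 higher, against 2.76% and 1.14% of all genes. A limma fit with 1 spread for both assays called 7 lower and 1 higher, the higher one being EZH1, against 4.46% and 3.11% of all genes. That fit leaves out the unlike spread of the assays, which the main fit weighted at 1.95 for RNA-seq and 0.263 for Ribo-seq.

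NSD3 (ENSG00000147548.17) had 149, 149.9, 139 and 148 CPM with STM2457, against 100.3, 97.6, 101 and 96.3 CPM with DMSO, a log2 change of 0.58 (SE 0.03, edgeR adjusted p = 9.28e-09) without overlap of the arms. NSD3 footprint signal was 630.5 and 453 with STM2457, against 618 and 569 with DMSO, so the arms overlapped, and the 2 STM2457 libraries were the highest and the lowest of the 4. Its efficiency was lower by a log2 change of -0.73 (SE 0.15, limma adjusted p = 0.0251). This call was lost without footprint DMSO replicate 1 (-0.67, limma adjusted p = 0.198), without DMSO replicate 2 (-0.79, 0.117) and without STM2457 replicate 2 (-0.49, 0.216).

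NSD1 (ENSG00000165671.20) RNA was at 423, 403, 380.4 and 379.6 CPM in the STM2457 libraries, against 241, 248, 238 and 231 CPM in the DMSO libraries. The arms were well apart, with a log2 change of 0.73 (SE 0.04, edgeR adjusted p = 3.76e-09), while the footprint change was 0.18 (SE 0.11, limma adjusted p = 0.278). The efficiency change of NSD1 was -0.36 and did not pass (limma adjusted p = 0.343), but it passed as lower with the edgeR interaction (-0.51, adjusted p = 0.00436). These fits differ in RNA input: limma used the authors' RNA signal, in which NSD1 rose by 0.545, and edgeR used the counts. ASH1L, at 134 ± 5.44 CPM with STM2457 and 93.1 ± 2.65 CPM with DMSO, rose by 0.53 in RNA with a footprint change of 0.13 (limma adjusted p = 0.573). NSD2 differed from its relatives in RNA: it was at 269 ± 4.22 CPM with STM2457 and 265 ± 2.63 CPM with DMSO, a log2 change of 0.03 that did not pass (edgeR adjusted p = 0.269). Efficiency changes were below 0 for all 5 H3K36 genes (median -0.36), as they were for all 5 MYST acetyltransferases (median -0.15), for 21 of the 32 and for 5328 of all 10906 genes. The list had a median of -0.11 and all genes one of 0.01. NSD2, at -0.05, was above 0 without footprint DMSO replicate 1 (0.08).

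**Figure D3:**
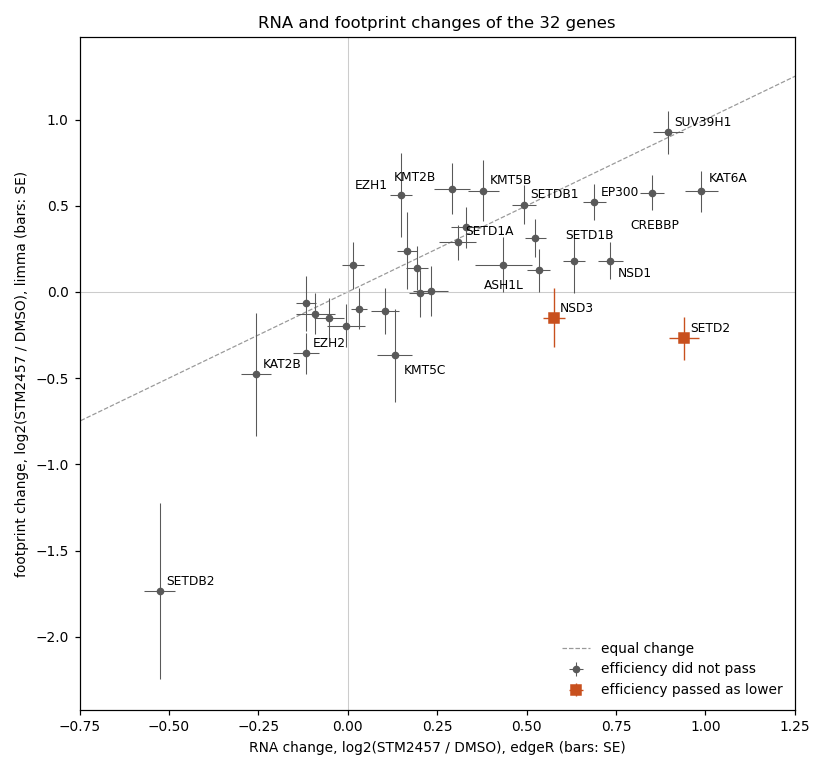
Footprint change (limma) against RNA change (edgeR) of the 32 genes, both as log2 of STM2457 over DMSO, with bars of 1 SE and a dashed line where both changes are equal. RNA changes are from the counts, whereas efficiency was tested with the authors' RNA signal, so distance from the line is not the tested value. Squares mark SETD2 and NSD3, the genes that passed as lower in efficiency, which lie at RNA changes of 0.94 and 0.58 with footprint changes of -0.27 and -0.15.

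EZH1 and EZH2 are the alternative catalytic subunits of Polycomb repressive complex 2, the H3K27 methyltransferase, and EZH2 fell while EZH1 rose by a small amount, which with ERCC scaling was a log2 change of -0.047 for EZH1 that did not pass. EZH2 (ENSG00000106462.10) had 92.9, 96.8, 101 and 96.5 CPM with STM2457, against 105, 99.8, 108 and 108 CPM with DMSO. The highest STM2457 library lay above the lowest DMSO library, and the log2 change was -0.12 (SE 0.04, edgeR adjusted p = 0.0189), which was lost without STM2457 replicate 1 (-0.10, adjusted p = 0.0607). EZH2 footprints fell too, with a signal of 1432 and 1199 with STM2457 against 1703 and 1653 with DMSO (-0.36, SE 0.12, limma adjusted p = 0.0336). Neither STM2457 library reached the DMSO libraries, but the call was lost when DMSO replicate 1 (limma adjusted p = 0.176), the other DMSO library (0.127) or STM2457 replicate 2 (0.305) was left out. EZH1, at 63.3 ± 1.27 CPM with STM2457 and 57.3 ± 1.79 CPM with DMSO, rose by 0.15 (SE 0.03, edgeR adjusted p = 0.00155). EZH1 footprint signal was 342 and 246 with STM2457, from 90 and 63 reads, against 189.9 and 202 with DMSO, from 59 and 42 reads, a change of 0.56 that did not pass (SE 0.24, limma adjusted p = 0.113). In the table's own RNA signal EZH1 did not pass (-0.0093 on the log2 scale, limma adjusted p = 0.853).

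Among the 6 H3K9 methyltransferases 3 rose, 2 fell and 1 did not pass in RNA, where 26.2% of all genes rose and 21.6% fell. In the SUV39H and SETDB pairs one gene rose and the other fell, with ERCC scaling too, where EHMT1 did not pass and EHMT2 passed as lower. SUV39H1 and SUV39H2 methylate H3K9 in the heterochromatin around centromeres. SUV39H1 (ENSG00000101945.16) had 95.5, 100.0, 87.7 and 97.6 CPM with STM2457, against 50.8, 53.0, 52.5 and 49.5 CPM with DMSO, a 1.86-fold rise (log2 change 0.90, SE 0.04, edgeR adjusted p = 2.28e-09). The lowest STM2457 library was far above the highest DMSO library. Its footprint signal was 1720.5 and 1847 with STM2457, against 904 and 974 with DMSO, a log2 change of 0.92 (SE 0.12, limma adjusted p = 5.4e-08). This was the largest footprint rise of the 32, it passed in all 9 footprint alternatives, and the efficiency change was 0.10 (limma adjusted p = 0.948). SUV39H2 (ENSG00000152455.15) went the other way in RNA, with 72.6, 71.7, 69.2 and 69.4 CPM in the STM2457 libraries, against 79.2, 77.6, 76.6 and 75.3 CPM in the DMSO libraries (-0.12, SE 0.03, edgeR adjusted p = 0.0041). All STM2457 libraries of SUV39H2 were below all DMSO libraries, and its footprint change was -0.07 (SE 0.16, limma adjusted p = 0.846).

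SETDB1 trimethylates H3K9 and silences retroelements, and SETDB2 is a less studied relative. SETDB1 (ENSG00000143379.12) had 77.0 ± 2.82 CPM with STM2457 and 55.0 ± 1.56 CPM with DMSO (SD, n = 4), a log2 change of 0.49 (SE 0.03, edgeR adjusted p = 9.29e-08). SETDB1 footprint signal was 2047 and 1983 with STM2457, against 1448 and 1388 with DMSO (0.51, SE 0.11, limma adjusted p = 0.000829). RNA and footprints of SETDB1 thus rose by about the same amount, and the arms were apart in both. SETDB2 (ENSG00000136169.16) had 11.5, 12.4, 11.9 and 11.7 CPM with STM2457, against 17.4, 17.4, 17 and 17 CPM with DMSO, the largest fall in RNA among the 32 (-0.53, SE 0.04, edgeR adjusted p = 6.06e-07). SETDB2 footprints were sparse, with 5 and 9 reads in the STM2457 libraries against 28 and 18 reads in the DMSO libraries, or a signal of 19.0 and 35.1 with STM2457 against 90.1 and 86.8 with DMSO. The footprint change of -1.73 (SE 0.51, limma adjusted p = 0.0131) was lost when 1 of 3 libraries was left out, namely DMSO replicate 1 (-1.71, 0.0979), the other DMSO library (-1.76, 0.105) or STM2457 replicate 1 (-1.31, 0.111). The efficiency change of SETDB2, -1.04 (SE 0.27), did not pass (limma adjusted p = 0.0895), except without STM2457 footprint replicate 2 (-1.47, adjusted p = 0.0223) or with a spread shared by both assays (adjusted p = 0.018).

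EHMT1 and EHMT2, also called GLP and G9a, form the complex that dimethylates H3K9 in active chromatin. EHMT1 rose by 0.19 in RNA (SE 0.03, edgeR adjusted p = 0.000192), to 83.7 ± 1.53 CPM with STM2457 against 73.6 ± 2.28 CPM with DMSO. EHMT2, at 76.3 ± 3.89 CPM with STM2457 and 79.5 ± 3.08 CPM with DMSO, did not pass (-0.05, edgeR adjusted p = 0.334). Footprint changes of 0.14 for EHMT1 and -0.15 for EHMT2 did not pass either.

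DOT1L, the H3K79 methyltransferase and the only one of the 23 without a SET domain, had 132 ± 8.92 CPM with STM2457 and 113 ± 5.84 CPM with DMSO, a log2 change of 0.23 (SE 0.05, edgeR adjusted p = 0.00196). DOT1L footprints were at 0.01 (limma adjusted p = 0.987). The 3 H4K20 methyltransferases all passed as higher in RNA, where 26.2% of all genes did. With ERCC scaling, however, only KMT5B of the 3 passed as higher, and DOT1L did not pass. KMT5A, which places the first methyl group and acts in the cell cycle, rose by 0.17 (SE 0.03) but did not pass in the table's RNA signal (0.095, limma adjusted p = 0.0758), and KMT5B and KMT5C add the further methyl groups. KMT5B (ENSG00000110066.15), at 53.2 ± 2.51 CPM with STM2457 and 41.2 ± 2.22 CPM with DMSO, rose by 0.38 in RNA (SE 0.04, edgeR adjusted p = 9.96e-06). KMT5B footprint signal was 638 and 547 with STM2457, against 415 and 371 with DMSO (0.59, SE 0.18, limma adjusted p = 0.0156). Both STM2457 libraries were above both DMSO libraries, but the call was lost without DMSO replicate 2 (limma adjusted p = 0.158) or STM2457 replicate 1 (0.161). KMT5C, at 23.9 ± 1.28 CPM with STM2457 and 22.0 ± 0.763 CPM with DMSO, passed by a small margin (0.13, SE 0.05, edgeR adjusted p = 0.0423) and did so in 2 of 17 alternative fits. Its libraries overlapped between the arms, and its footprint change was -0.37 (SE 0.27, limma adjusted p = 0.408).

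The paralogs CREBBP and EP300, the CBP and p300 coactivators that acetylate H3K27 at enhancers and promoters, both rose in RNA and in footprints. CREBBP (ENSG00000005339.14) had 237, 231, 215 and 237 CPM with STM2457, against 128, 128, 125 and 131 CPM with DMSO, a 1.80-fold rise (log2 change 0.85, SE 0.03, edgeR adjusted p = 5.29e-10). EP300 (ENSG00000100393.13) had 191, 185, 180.1 and 193 CPM with STM2457, against 119, 114, 112 and 121 CPM with DMSO, a 1.61-fold rise (0.69, SE 0.03, edgeR adjusted p = 3.29e-09). In both genes the lowest STM2457 library was well above the highest DMSO library. CREBBP footprint signal was 3262 and 3807 with STM2457, against 2349.5 and 2376 with DMSO (0.58, SE 0.10, limma adjusted p = 2.13e-05). EP300 footprint signal was 3168 and 3209 with STM2457, against 2395 and 2058 with DMSO (0.52, SE 0.10, limma adjusted p = 0.000146). The footprint arms were apart as well, both calls passed in all 9 footprint alternatives, and the efficiency changes of -0.17 for CREBBP and -0.11 for EP300 did not pass.

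KAT2A and KAT2B, known as GCN5 and PCAF, are the alternative acetyltransferases of the SAGA and ATAC coactivator complexes, and neither rose. KAT2B (ENSG00000114166.8) had 16.9, 15.9, 16.5 and 15.7 CPM with STM2457, against 19.5, 19.7, 19.7 and 19.1 CPM with DMSO, a log2 change of -0.26 (SE 0.04, edgeR adjusted p = 0.000263). All STM2457 libraries were below all DMSO libraries, while the footprints, from 21 and 23 reads with STM2457 and 36 and 25 reads with DMSO, had a log2 change of -0.48 that did not pass (limma adjusted p = 0.418). KAT2A, at 95.1 ± 6.88 CPM with STM2457 and 102 ± 6.10 CPM with DMSO, did not pass (-0.09, edgeR adjusted p = 0.199), but it passed as lower when genes were not filtered (-0.10, adjusted p = 0.0309), among other fits.

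Of the 5 MYST acetyltransferases 4 rose in RNA and 1 in footprints, where 26.2% and 9.59% of all genes did. With ERCC scaling KAT6A and KAT6B passed as higher in RNA, KAT7 as lower, and KAT5 and KAT8 not at all. KAT6A and KAT6B, or MOZ and MORF, work in complexes with BRPF scaffold proteins and acetylate histone H3. KAT6A (ENSG00000083168.11) had 200.2, 203, 172 and 192 CPM with STM2457, against 101, 100.3, 94.8 and 93.4 CPM with DMSO, the largest RNA rise of the 32 at 1.98-fold (log2 change 0.99, SE 0.05, edgeR adjusted p = 3.26e-09). The lowest STM2457 library, replicate 3, was still far above every DMSO library. KAT6A footprint signal was 1869 and 1940.5 with STM2457, against 1255 and 1287 with DMSO (0.58, SE 0.12, limma adjusted p = 0.000162), again without overlap. The footprint rise was smaller than the RNA rise, and the efficiency change of -0.35 (SE 0.17) did not pass (limma adjusted p = 0.567). KAT6B, at 75.8 ± 9.54 CPM with STM2457 and 56.5 ± 4.26 CPM with DMSO, rose by 0.43 in RNA with the widest spread of the 32 (SE 0.08, edgeR adjusted p = 0.00057), and its footprint change of 0.16 did not pass.

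KAT8, or MOF, the H4K16 acetyltransferase, rose by 0.20 in RNA (SE 0.03, edgeR adjusted p = 0.00015) but not in the table's RNA signal (0.067, limma adjusted p = 0.0792), with footprints at -0.01. KAT5, or TIP60, the acetyltransferase of the NuA4 complex, passed narrowly (0.10, SE 0.04, edgeR adjusted p = 0.0444), its arms overlapped, and it passed in 4 of 17 alternative fits. KAT7, or HBO1, an acetyltransferase linked to replication origins, was at 91.5 ± 6.91 CPM with STM2457 and 92.4 ± 5.83 CPM with DMSO, a change of -0.01 (SE 0.05, edgeR adjusted p = 0.946). Footprints of KAT5 (-0.11) and KAT7 (-0.20) did not pass.

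The ratio of 2 related genes within a library does not depend on how libraries are scaled. In this way 13 pairs of related enzymes, chosen with earlier results of these data known, were compared as a description. In 10 of the 13 pairs the ratios of the STM2457 and DMSO libraries did not overlap in RNA. Of single genes, 23.8% of all were higher and 20.3% lower without overlap, and pairs of other genes were not compared. These levels are not per transcript length, so only the difference between the arms is read. SUV39H1 and SUV39H2 were among the pairs that shifted most: the log2 ratio of SUV39H1 over SUV39H2 was 0.43 ± 0.07 with STM2457 and -0.58 ± 0.05 with DMSO (SD, n = 4), a difference of 1.01 in RNA and of 0.99 in footprints. SETDB1 over SETDB2 was at 2.69 ± 0.10 with STM2457 and 1.68 ± 0.03 with DMSO, a difference of 1.02, and in footprints the difference was 2.24, from few SETDB2 reads. NSD1 over NSD2 was at 0.56 ± 0.05 with STM2457 and -0.14 ± 0.03 with DMSO, a difference of 0.70, and NSD3 over NSD2 differed by 0.54. In footprints the difference was 0.28 for NSD1 over NSD2 and -0.05, with overlapping libraries, for NSD3 over NSD2.

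KAT6A over KAT6B, at 1.35 ± 0.09 with STM2457 and 0.79 ± 0.06 with DMSO, differed by 0.56. The shifts were smaller for EZH1 over EZH2 (0.26), EHMT1 over EHMT2 (0.25) and CREBBP over EP300 (0.16), and negative for KMT2C over KMT2D (-0.29) and SETD1A over SETD1B (-0.11). Libraries overlapped for KMT2A over KMT2B (0.03), KMT5B over KMT5C (0.25) and KAT2A over KAT2B (0.17). Footprint differences of the other pairs ran from -0.22 for KMT2A over KMT2B to 0.96 for KMT5B over KMT5C. For SETD1A over SETD1B the footprint difference was 0.14, opposite in sign to RNA and with overlapping libraries, and the signs were opposite for KMT2A over KMT2B too.

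**Figure D4:**
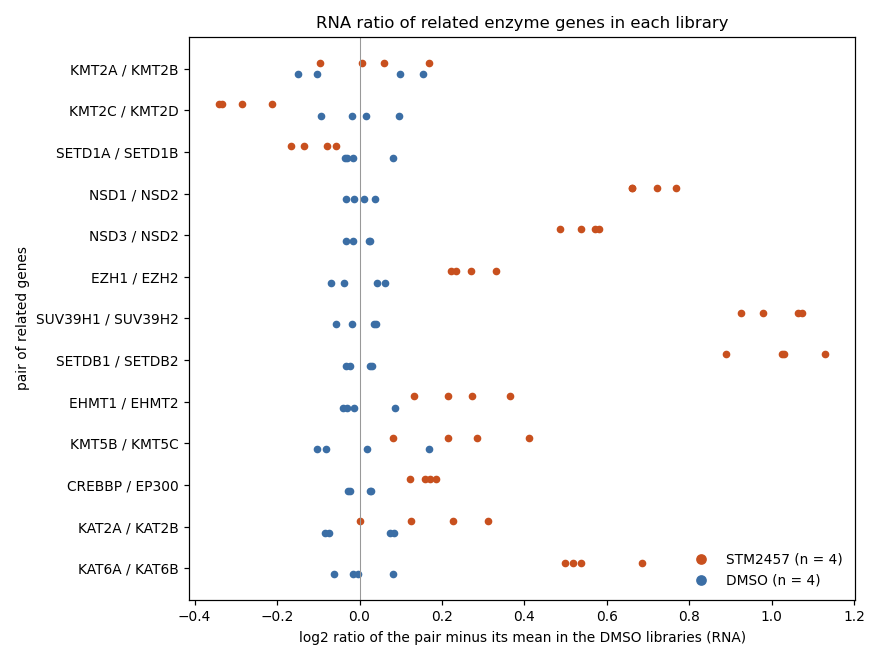
Log2 RNA ratio of 13 pairs of related genes in each library, minus the mean of the 4 DMSO libraries, with 4 STM2457 libraries in the upper row and 4 DMSO libraries in the lower row of each pair. SUV39H1 over SUV39H2 and SETDB1 over SETDB2 are shifted by about 1 log2 unit, and 3 pairs (KMT2A over KMT2B, KMT5B over KMT5C and KAT2A over KAT2B) overlap between the arms.

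Efficiency in the authors' deposited table is a ratio of mean footprint to mean RNA signal, with no replicate error. By that table most of these genes had low efficiencies in both arms: the median was 0.608 with STM2457 and 0.652 with DMSO for the 32, against 1.00 and 1.01 for all 12224 genes. In the DMSO arm 28 of the 32 lay below the median gene. In the authors' deposited table SETD2 was at 0.29 with STM2457 and 0.611 with DMSO, and NSD3 was at 0.284 with STM2457 and 0.46 with DMSO. SETDB2 had the lowest efficiency of the 32 in that table of the authors, 0.155 with STM2457 and 0.313 with DMSO, and SUV39H1 the highest, 1.73 with STM2457 and 1.57 with DMSO. The authors' deposited table gave 22 of the 32 a change below 0, with a median log2 change of -0.10, against 0.00 over all genes.

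Genes that encode partners of these enzymes were counted in the same way. Of 117 listed partners and further lysine methyltransferases and acetyltransferases, all tested in RNA, 53 rose and 21 fell (median 0.09), where 26.2% and 21.6% of all genes did. The list of acetyltransferase complex subunits had 23 of 38 higher and 8 lower (median 0.20), with TAF5L (0.72) and TADA2B (0.69) of SAGA, MSL1 (0.68), the scaffold of a KAT8 complex, and CITED2 (0.94), a CBP and p300 binding protein, all at edgeR adjusted p of 1.86e-08 or less. The DOT1L and elongation list had 6 of 9 higher and 1 lower (median 0.19), among them AFF1 (0.46) and MLLT3 (0.42). Partners in the MLL complexes numbered 5 higher and 4 lower of 15 (median 0.07), with NCOA6 at 0.60, those of Polycomb repressive complex 2 numbered 3 and 2 of 11 (0.06), with JARID2 at 0.60 and PHF19 at -0.37, and those of H3K9 methylation numbered 5 and 3 of 12 (0.04), with ZNF644 at 0.60. Under ERCC scaling 28 of the 117 were higher and 51 lower (median -0.11), where 12.1% and 47.1% of all genes were (median -0.19).

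Further lysine methyltransferases numbered 7 higher and 3 lower of 18 in RNA (median 0.09), where 26.2% and 21.6% of all genes were, with KMT2E at 0.55 and SETD3 at 0.40. Further acetyltransferases numbered 4 higher and 1 lower of 15 in RNA (median -0.01), and the higher ones were near the share of all genes. NAA40, which acetylates the N-terminus of histones H2A and H4, was the 1 lower gene, at 45.2 ± 5.65 CPM with STM2457 and 76.7 ± 1.04 CPM with DMSO (log2 change -0.76, SE 0.07, edgeR adjusted p = 1.03e-06), and its footprints fell by 1.05 (limma adjusted p = 2.65e-06). Footprints were higher for 13 and lower for 8 of the 115 partners tested, near the 9.59% and 6.13% of all genes. Efficiency was lower for 2 of 115 and higher for 0, where 0.807% and 0.229% of all genes were, and the lists were chosen with earlier results known. These were MORC2 of the HUSH silencing system (-1.58, limma adjusted p = 0.000189) and BOD1L1, which associates with SETD1 enzymes and was singled out from its list after its value was seen (-1.02, limma adjusted p = 0.00915), with RNA changes of 0.24 for MORC2 and 0.07 for BOD1L1.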

How the data were processed

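In the RNA-seq files as deposited, values are raw counts for each gene and for 92 ERCC sequences, which were left out of the tests. Per the submitters' processing notes, STAR 2.7.3a, Subread 2.0.3 with featureCounts, UMI-tools 1.1.2, SAMtools 1.10, bedtools 2.29.2, FastQC 0.11.9 and DESeq2 were used with GRCh38.p12, and no role or strand setting is given. The table of the whole series, made by the authors, holds a normalized signal per library, authors' means of that signal, efficiencies as a ratio of footprint to RNA means (RNA replicates 1 to 3), and their log2 change, as tested on the deposited values. RNA signals of the table are not proportional to the deposited counts. Footprint signals were whole multiples of 1 read in 100% of values (tolerance 0.1 read), so reads were recovered, between 3.22 and 4.82 signal units each.

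RNA was tested with edgeR 4.0.16 (quasi-likelihood, TMM, filterByExpr) in R 4.3.3. Footprints were tested with limma 3.58.1 on log2(signal + 1) for genes with a mean of at least 10 reads, so fold changes are on that scale and understate changes of low genes. Efficiency was the limma interaction of assay and treatment with a weight per assay (1.95 for RNA-seq, 0.263 for Ribo-seq). P-values were Benjamini-Hochberg adjusted over all genes tested, with a threshold of 0.05. The edgeR SE is the log2 change over the square root of F. Scripts were tested on simulated data.

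The 32 genes, the partner lists and the pairs were chosen with earlier results of these data known. Each of the 32 is named, values per library are given for those past a test as lower in RNA, 1.5 fold or more higher in RNA, or called in footprints or efficiency, and at most the 4 partners with the smallest RNA p per list are named, with exceptions stated. Alternatives were DESeq2 1.42.0, RLE factors, ERCC scaling, other filters, a pseudocount of 10, a replicate block, each library left out, RNA-seq replicates 1 and 2 only or 3 and 4 only (efficiency with 1 and 2 only), edgeR on recovered reads, an edgeR interaction, a shared spread, and, chosen after seeing the data, limma on the table's RNA signal, ERCC scaling without STM2457 replicate 4, and each RNA-seq library left out of the efficiency fit. RefSeq promoters match by symbol. Antisense and intronic neighbours such as ASH1L-AS1 (3.50% of the ASH1L counts) could not be told apart without the strand setting. Promoter sequences on chromosome 8 were not used here, whereas the RNA and footprint tests left out no chromosome.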

Additional observations from a re-analysis of the deposited data

Results flagged for a closer look

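Each arm of 4 RNA-seq libraries was checked for a library far from the other 3, in 64 groups of CPM values (32 genes in 2 arms). In 4 of the 64 the gap to the nearest library was large for the range of the group, and chance alone gives about 1 in 20 groups. STM2457 replicate 3 was the lowest for NSD3, at 139 CPM where the others had 148 to 149.9 CPM, and for ASH1L, at 126 CPM where the others had 136 to 137 CPM. The same library was also the lowest of its arm for KAT6A and KAT6B, at 172 and 62.2 CPM, without standing as far apart. In the STM2457 arm KAT8 was highest in replicate 4, at 64.0 CPM where the others had 60.5 to 61.0 CPM. In the DMSO arm KMT5C was lowest in replicate 2, at 20.8 CPM where the others had 22.2 to 22.4 CPM. NSD3, ASH1L and KAT8 kept their RNA calls without the library named, and KMT5C lost its call without DMSO replicate 2 (log2 change 0.10, edgeR adjusted p = 0.13).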

How the results depend on the processing

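Over the 32 genes and the alternatives, 474 RNA values kept their sign and call, 37 lost the call, 11 gained it, 13 turned in sign with a call on either side and 9 turned in sign with none. For footprints 256 kept both, 20 lost the call and 9 uncalled values turned in sign, and for efficiency 547 kept both, 3 lost and 9 gained the call and 17 uncalled values turned. With ERCC scaling, and in brackets also without STM2457 replicate 4, the list had 14 higher and 9 lower genes (14 and 9), all genes numbered 2159 higher and 8383 lower (2464 and 7517), and partners numbered 28 and 51. RNA log2 changes turned negative for KMT2C at -0.18 (-0.15), NSD2 at -0.16 (-0.12), EZH1 at -0.047 (-0.014), KMT5C at -0.065 (-0.045) and KAT5 at -0.093 (-0.072), and with all libraries for EHMT1 at -0.0018 and KMT5A at -0.030. EZH1 RNA was also at -0.0093 with the table's RNA signal. ERCC scaling shifts every gene by about the same amount, and the median log2 change over all genes was -0.19 with it. The cause of this shift, and of the turn of EZH1 with the table's RNA signal, was not tested.

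Footprint counts of the list were 5 to 8 higher and 0 to 1 lower when a library was left out (262 to 620 lower over all genes), and 1 was lower with at least 50 reads, where SETDB2 was not tested. Efficiency calls of the list were 1 higher and 7 lower with a shared spread, 0 and 4 with an edgeR interaction, and 0 higher with 1 to 2 lower when a library was left out. Over all genes they were 339 and 486 with a shared spread, 124 and 301 with the interaction, 15 higher without a filter, and 7 to 27 higher and 30 to 102 lower when a library was left out. For these the cause was not tested.

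The labels state no pairing by replicate number, and samples were not treated as paired, since not every pair passed a correlation of 0.1: same-numbered RNA-seq libraries correlated in their deviations at r of 0.149, 0.227, 0.15 and 0.0779, and Ribo-seq libraries at 0.00238. Replicate 2 alone matched its own number best, replicate 1 matched 2, and 3 and 4 matched each other. With the replicate block RNA calls were 23 higher and 5 lower in the list (5186 and 4472 over all genes), KAT2A being added (-0.09, edgeR adjusted p = 0.00682), footprint calls 9 and 2, with KMT2D lost (limma adjusted p = 0.0631), and efficiency calls 0 and 2. Footprints of SETDB2, KAT2B, EZH1, KMT5A and KMT5C had under 100 reads in each library, and the part of depth in their results was not tested.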
